A study of Mus musculus with 24 samples.

Results

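The genes described here encode the subunits of ligand-gated neurotransmitter receptors, ion channels that open when glutamate, GABA, glycine, acetylcholine, ATP or serotonin binds to them. Membership was set by gene symbol and used no measured value, although the receptor group itself was picked for description with earlier results of these data known. The symbols matched 67 of the 53946 genes counted. These were 4 AMPA, 5 kainate, 7 NMDA and 2 delta subunits of the glutamate receptor group, 19 GABA-A and 5 glycine receptor subunits, 16 nicotinic acetylcholine receptor subunits, 7 ATP-gated P2X subunits and 2 subunits of the serotonin receptor 5-HT3. RNA-seq counts came from polyA RNA of mouse ventral otocysts, the piece of the embryonic inner ear that holds the cochlea, taken at embryonic day 14.5. TRAP, the purification of translating ribosomes, used antibodies to GFP to pull down ribosomes with their RNA from cells whose L10a ribosomal protein carried eGFP. Cre of the Fgf20-Cre lineage set which cells made the tag, so TRAP samples those cells. There were 8 TRAP libraries from Fgf20-/- embryos (TRAP mut), 8 TRAP libraries from Fgf20+/- embryos (TRAP het), 4 libraries labelled pre-TRAP from Fgf20-/- embryos (pre-TRAP mut) and 4 from Fgf20+/- embryos (pre-TRAP het). All were of the strain C57BL/6J x 129X1/SvJ, and every group was divided evenly between experiment 2 and experiment 1, the only batch that the labels give. All groups carried at least 1 mutant Fgf20 allele, so there was no wild type, and tissue of 3 to 7 embryos sharing a genotype went into each library. The labels give TRAP and pre-TRAP libraries the same extraction text and do not say that pools of a group were collected separately, so p-values measure the spread between these libraries.

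Ionotropic glutamate receptors are tetramers: AMPA receptors carry most fast excitatory currents, NMDA receptors need the obligatory subunit GluN1 (Grin1) beside GluN2 or GluN3 subunits, and kainate receptors combine low-affinity subunits (Grik1, Grik2, Grik3) with high-affinity ones (Grik4, Grik5). GABA-A, glycine, nicotinic and 5-HT3 receptors are pentamers of the Cys-loop superfamily, and P2X receptors are trimers. In the inner ear, hair cells release glutamate onto AMPA receptors of spiral ganglion neurons, and efferent fibres act on hair cells through a nicotinic receptor of the subunits alpha9 (Chrna9) and alpha10 (Chrna10).

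Total counts per library were 30904630 to 50266312 in TRAP mut, 30745166 to 44314324 in TRAP het, 32185336 to 53374796 in pre-TRAP mut and 32468594 to 50624390 in pre-TRAP het. Fgf20, the targeted gene and a secreted FGF ligand, averaged 2.24 ± 0.729 CPM (counts scaled to a common library total with TMM factors) in TRAP mut and 4.19 ± 0.978 CPM in TRAP het (SD, n = 8 each), and 0.236 ± 0.0689 CPM in pre-TRAP mut and 0.885 ± 0.584 CPM in pre-TRAP het (SD, n = 4 each). The mut to het difference of Fgf20 on the log2 scale was -0.94 ± 0.22 in TRAP and -1.75 ± 0.45 in pre-TRAP, and neither passed in edgeR (SE, adjusted p = 0.188 and 0.837). The labelled tissue was checked against marker lists. Summed markers of the prosensory domain, the epithelium that forms the organ of Corti, had medians of 677 CPM in TRAP mut, 716 CPM in TRAP het, 139 CPM in pre-TRAP mut and 147 CPM in pre-TRAP het. Most of each sum came from Isl1, which is also among the neuron markers. Isl1 averaged 514 CPM in TRAP and 81.6 CPM in pre-TRAP libraries. Neuron markers ran from 3560 to 6620 CPM in TRAP and from 689 to 1050 CPM in pre-TRAP libraries, and no label names neurons. TRAP libraries 3, 4, 5 and 6 held the most periotic mesenchyme markers, 260 to 585 CPM against 84 to 193 CPM in the other 12 TRAP libraries. They were picked by this sum, so the ranges could not overlap. Pre-TRAP libraries held 690 to 1130 CPM of the same markers.

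Receptor subunits were counted at low levels. Of the 67, 37 subunits averaged at least 1 CPM in some group (27 genes) or passed a test (32 genes), and most of them are described with values. The other 30 subunits had highest group means between 0.00967 and 0.89 CPM, and 12 subunits stayed under 0.1 CPM in every group. Those 12 were the rho subunits Gabrr1, Gabrr2 and Gabrr3, Gabra6, Gabrd, Gabrg1 and Gabrp among the GABA-A subunits, the glycine receptor subunits Glra1, Glra3 and Glra4, and the nicotinic subunits Chrna2 and Chrne. Chrna10, the partner of Chrna9 in hair cells, reached a highest group mean of 0.128 CPM. Because count levels depend on transcript length, subunits are compared with themselves across libraries and not ranked against each other.

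The first comparison asked which subunits were on tagged ribosomes more or less than in pre-TRAP RNA. Among the largest rises in TRAP were those of Htr3b, P2rx3, Chrnb2 and Chrna4, from the 5-HT3, P2X and nicotinic families, while Grik1, Gria1 and Gabra4 were among the most strongly lower. Of the 67 subunits, 52 passed the filter on low counts, 16 were higher and 12 were lower in edgeR's quasi-likelihood test at a Benjamini-Hochberg adjusted p under 0.05. Over all 24242 genes tested, 59.1% were called, 27.9% higher and 31.2% lower, so the share of subunits called was near that of genes at large. At an unadjusted p under 0.05 there were 29 subunits, beside 62.7% of all genes. The median log2 fold change (TRAP over pre-TRAP) was 0.286 over the subunits and -0.015 over all genes. Levels of 3 subunits lay above, and of 3 below, with no overlap between the 16 TRAP and the 8 pre-TRAP libraries, and the other 46 tested overlapped. The share over all genes was not computed, so these counts cannot be called many or few. Of the 28 called subunits, 27 had the same sign in each experiment alone and 21 were called in each. The 28 were called on these same libraries, so these counts are no replication. The share over all called genes was not computed. P2rx1 was too low for a test in experiment 2. In bulk RNA, fewer cells of a type and less RNA per cell cannot be told apart.

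**Figure D1:**
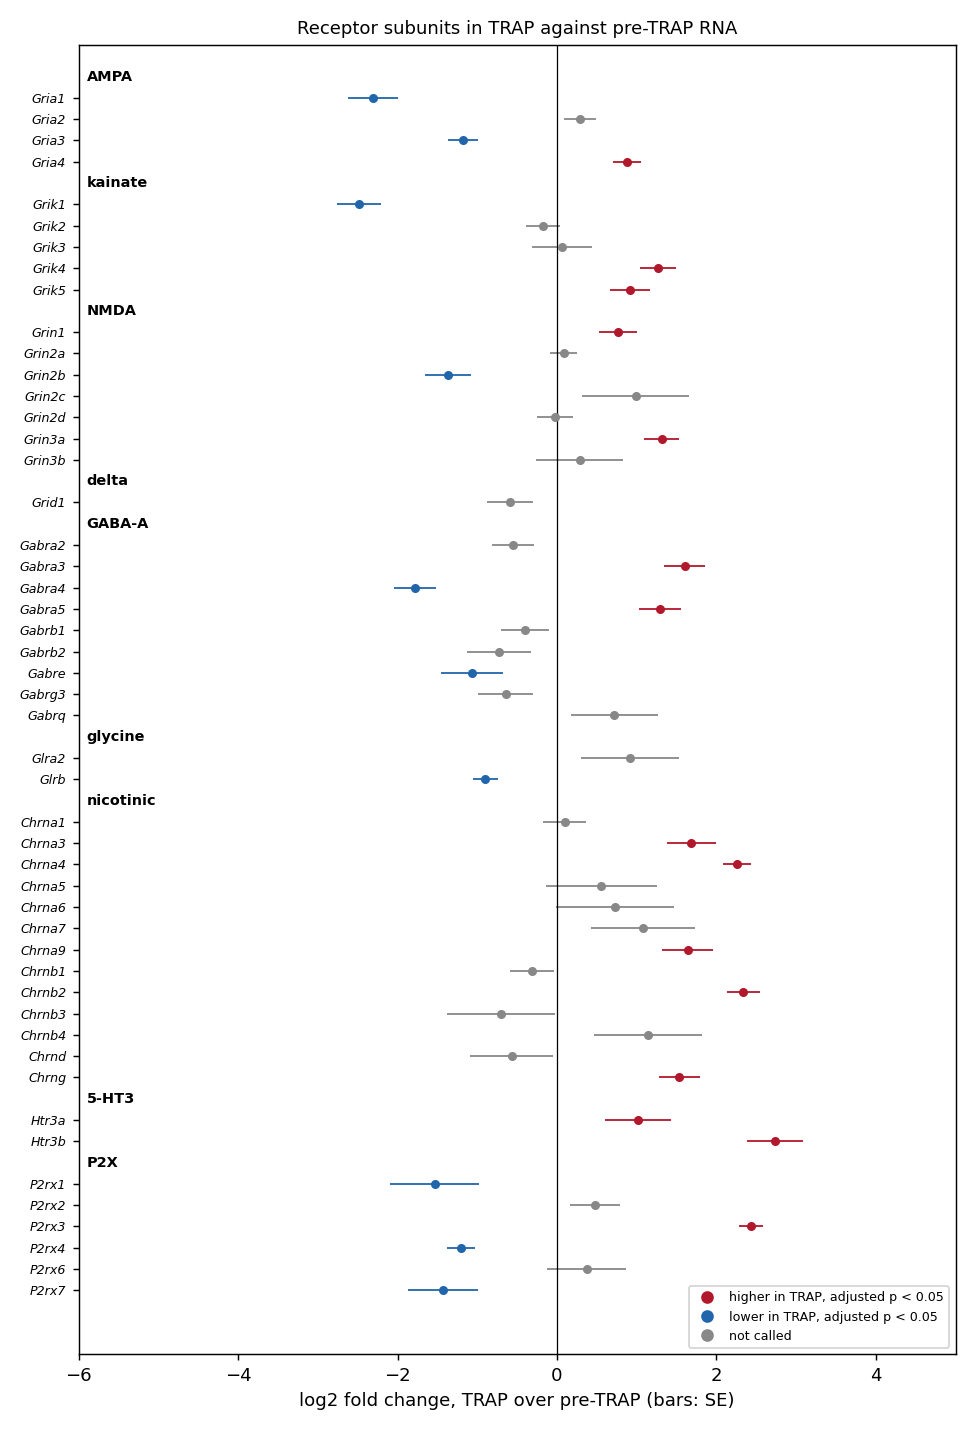
Log2 fold change of TRAP over pre-TRAP RNA (x axis) for 49 of the receptor subunits tested, grouped by family down the page. Points are edgeR estimates and bars their SE, red for the 15 shown that were higher in TRAP, blue for the 10 lower and grey for those not called. All 5 called nicotinic subunits and both 5-HT3 subunits lie right of 0, while the AMPA, kainate, NMDA, GABA-A and P2X families hold called subunits on both sides.

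Among the P2X subunits, P2rx3 (ENSMUSG00000027071, chromosome 2), which forms ATP-gated channels of sensory neurons, had the smallest adjusted p of all subunits. It ran from 15.4 to 38.5 CPM with a median of 25.5 CPM in the 16 TRAP libraries and from 3.50 to 6.30 CPM with a median of 4.71 CPM in the 8 pre-TRAP libraries. Every TRAP library lay above every pre-TRAP library. The log2 fold change was 2.43 ± 0.15 (SE, edgeR adjusted p = 3.74e-13), 2.39 in experiment 2 alone and 2.51 in experiment 1 alone. P2rx2, which joins P2rx3 in heteromers, averaged 0.853 ± 0.457 CPM in TRAP and 0.582 ± 0.230 CPM in pre-TRAP (SD, n = 16 and 8) and was not called (log2 0.48 ± 0.31, SE). The other called P2X subunits went the other way. P2rx4, found in many cell types and prominent in macrophages, ran from 1.05 to 4.67 CPM in TRAP against 4.06 to 6.59 CPM in pre-TRAP (log2 -1.21 ± 0.18, SE, edgeR adjusted p = 1.57e-06). P2rx7, the channel through which ATP activates macrophages, averaged 0.291 ± 0.322 CPM in TRAP and 0.787 ± 0.298 CPM in pre-TRAP (log2 -1.43 ± 0.44, SE, edgeR adjusted p = 0.00693). It was not called in experiment 2 alone (log2 -1.24, edgeR adjusted p = 0.201) or in het libraries alone (log2 -1.14, edgeR adjusted p = 0.23). P2rx1, known from platelets and smooth muscle, had 0.0779 ± 0.082 CPM in TRAP and 0.235 ± 0.13 CPM in pre-TRAP (log2 -1.53 ± 0.56, SE, edgeR adjusted p = 0.02). Without pre-TRAP library 17 or 20 its edgeR adjusted p was 0.0525 or 0.0639, and in experiment 1 alone it was 0.101. Of 7 macrophage markers 6 were lower, and their sum was 2.01 to 5.08 CPM in TRAP and 16.1 to 25.1 CPM in pre-TRAP libraries. This was not particular to macrophages, since periotic mesenchyme, endothelial, erythroid and melanocyte markers were lower too. The part of any of these cells in the P2X differences was not tested.

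Of 13 nicotinic subunits tested, 5 were higher in TRAP and none lower, beside 27.9% and 31.2% of all genes, and the direction of the family was not tested. Chrna4 and Chrnb2 encode the alpha4 and beta2 subunits that together make the main nicotinic receptor of the brain. Chrna4 (ENSMUSG00000027577) ran from 6.56 to 18.2 CPM, median 14.1 CPM, in TRAP and from 2.10 to 5.35 CPM, median 2.58 CPM, in pre-TRAP libraries. Chrnb2 (ENSMUSG00000027950) ran from 5.00 to 12.6 CPM, median 7.75 CPM, in TRAP and from 0.597 to 2.66 CPM, median 1.47 CPM, in pre-TRAP libraries. For both genes the lowest TRAP library lay above the highest pre-TRAP library. The log2 fold changes were 2.26 ± 0.17 for Chrna4 (SE, edgeR adjusted p = 1.61e-11) and 2.34 ± 0.21 for Chrnb2 (SE, edgeR adjusted p = 3.4e-10). Chrna3, the alpha3 subunit of autonomic ganglia, averaged 1.94 ± 0.804 CPM in TRAP and 0.648 ± 0.499 CPM in pre-TRAP (log2 1.69 ± 0.31, SE, edgeR adjusted p = 3.87e-05). Its neighbours in the same gene cluster, Chrna5 and Chrnb4, had highest group means of 0.126 and 0.157 CPM and were not called. Chrna9, the hair cell subunit, ran from 0.258 to 3.92 CPM in TRAP and from 0.196 to 0.963 CPM in pre-TRAP, with overlap, and its log2 fold change was 1.64 ± 0.32 (SE, edgeR adjusted p = 6.75e-05). Beside it, 5 of 8 hair cell markers were higher in TRAP and none lower, with log2 fold changes of 3.64 ± 0.39 for Lhx3, 2.99 ± 0.19 for Pou4f3 and 2.95 ± 0.18 for Atoh1 (SE).

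Chrng encodes the gamma subunit of the fetal muscle receptor, and it ran from 0.435 to 3.12 CPM in TRAP and from 0.31 to 0.846 CPM in pre-TRAP libraries. The groups overlapped, and the log2 fold change was 1.54 ± 0.26 (SE, edgeR adjusted p = 1.36e-05), 1.77 in experiment 2 alone and 1.28 in experiment 1 alone. The other muscle subunits did not pass: log2 fold changes were 0.10 ± 0.27 for Chrna1, -0.31 ± 0.28 for Chrnb1 and -0.57 ± 0.52 for Chrnd (SE). Skeletal muscle markers went mostly down in TRAP, with 6 of 8 lower and 1, the cardiac actin gene Actc1, higher (log2 1.79 ± 0.17, SE). Myod1 and Myf5, which specify muscle cells, averaged 0.0772 and 0.0448 CPM in TRAP, with 4 and 5 of 16 libraries at 0, and 0.285 and 0.231 CPM in pre-TRAP. Genes that act in clustering the muscle receptor at the endplate went both ways. Rapsn and Dok7 were higher in TRAP, at log2 fold changes of 1.05 ± 0.22 and 0.96 ± 0.23 (SE). Lrp4 was lower (log2 -0.93 ± 0.23, SE), and Agrn was not called (log2 -0.20 ± 0.13, SE).

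The promoters of 4 nicotinic subunits are shown, of the brain subunit Chrna4, the hair cell subunit Chrna9, the muscle subunit Chrng and Chrna7, which differed between the experiments. Those of the other called subunits, Chrna3 and Chrnb2, are not printed. Each is given as the 250 bases before the annotated start, from RefSeq on GRCm38.p6, 5′ to 3′ on the gene's strand, and 46 of the 67 subunits had a promoter in that table. Capitals mark the E-box letters CAGCTG, which proneural and muscle bHLH factors can bind, or the GC box GGGCGG on either strand. The windows are at chr2:181039178-181039427, minus strand for Chrna4, chr5:65966874-65967123, plus strand for Chrna9, chr1:87205561-87205810, plus strand for Chrng and chr7:63212527-63212776, minus strand for Chrna7. Chrng holds 2 E-box matches and Chrna9 holds 1, Chrna4 holds 3 GC boxes and Chrna7 holds 1.
Chrna4: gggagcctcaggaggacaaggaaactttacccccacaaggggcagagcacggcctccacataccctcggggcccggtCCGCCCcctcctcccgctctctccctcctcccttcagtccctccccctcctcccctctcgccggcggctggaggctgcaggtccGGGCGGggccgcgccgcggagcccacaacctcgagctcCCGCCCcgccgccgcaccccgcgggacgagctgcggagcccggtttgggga
Chrna9: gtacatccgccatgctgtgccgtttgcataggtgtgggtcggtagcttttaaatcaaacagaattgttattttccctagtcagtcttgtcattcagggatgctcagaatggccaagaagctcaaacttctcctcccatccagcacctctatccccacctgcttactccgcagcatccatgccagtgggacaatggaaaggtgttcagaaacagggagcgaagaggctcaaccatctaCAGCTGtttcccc
Chrng: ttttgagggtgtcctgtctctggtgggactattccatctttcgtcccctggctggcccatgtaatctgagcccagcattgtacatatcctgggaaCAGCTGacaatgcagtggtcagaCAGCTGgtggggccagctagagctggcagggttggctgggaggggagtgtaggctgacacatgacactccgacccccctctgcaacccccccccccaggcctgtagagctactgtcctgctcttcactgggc
Chrna7: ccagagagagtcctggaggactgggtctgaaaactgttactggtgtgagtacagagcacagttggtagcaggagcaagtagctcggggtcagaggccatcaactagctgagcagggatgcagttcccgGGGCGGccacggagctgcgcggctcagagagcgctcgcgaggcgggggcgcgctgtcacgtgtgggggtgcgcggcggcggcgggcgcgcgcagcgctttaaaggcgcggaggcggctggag
The E-box letters were in the windows of 7 of the 46 subunits, namely Chrna1, Chrna9, Chrnb4, Chrne, Chrng, Gabrp and Glra3, and in 13.0% of all 32851 promoters in the table. The GC box was in the windows of 21 of the 46 subunits and in 32.7% of all promoters. The units differ: the 46 subunits had 52 promoters and counted if any of theirs matched, while the percentages are over single promoters. These are descriptions of the letters, with no measurement of binding.

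Both 5-HT3 subunits were higher in TRAP. Htr3b (ENSMUSG00000008590), which needs Htr3a to form a channel, ran from 0.190 to 1.86 CPM, median 0.739 CPM, in TRAP and from 0.0282 to 0.330 CPM, median 0.0847 CPM, in pre-TRAP libraries. The lowest TRAP libraries fell within the pre-TRAP range. Its log2 fold change of 2.74 ± 0.35 was the largest of all subunits (SE, edgeR adjusted p = 1.57e-07), on 1 to 16 counts per pre-TRAP library. Htr3a, the subunit that can form channels alone, averaged 0.473 ± 0.28 CPM in TRAP and 0.233 ± 0.0954 CPM in pre-TRAP (log2 1.02 ± 0.41, SE, edgeR adjusted p = 0.0367). That call depended on single libraries: the edgeR adjusted p ran from 0.0501 to 0.106 when library 7, 12, 13, 14, 16, 19, 20, 21 or 22 was left out, and it was 0.583 in experiment 2 alone.

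Among 11 GABA-A subunits tested, 3 were higher and 3 lower in TRAP, beside 27.9% and 31.2% of all genes. The alpha subunits, which set where and how strongly GABA acts, divided. Gabra3 had a median of 1.20 CPM in TRAP and 0.396 CPM in pre-TRAP (log2 1.60 ± 0.26, SE, edgeR adjusted p = 6.15e-06). Gabra5, known from extrasynaptic receptors, averaged 0.492 ± 0.168 CPM in TRAP and 0.201 ± 0.0521 CPM in pre-TRAP (log2 1.29 ± 0.27, SE). Gabra4 (ENSMUSG00000029211) went the other way, with 0.179 to 1.15 CPM, median 0.653 CPM, in TRAP and 1.18 to 2.54 CPM, median 1.87 CPM, in pre-TRAP. Its ranges did not overlap, and its log2 fold change was -1.78 ± 0.26 (SE, edgeR adjusted p = 1.57e-06). Gabra2 averaged 0.791 ± 0.362 CPM in TRAP and 1.21 ± 0.603 CPM in pre-TRAP and did not pass (log2 -0.56 ± 0.26, SE, edgeR adjusted p = 0.0711). Gabre averaged 0.199 ± 0.109 CPM in TRAP and 0.406 ± 0.169 CPM in pre-TRAP (log2 -1.07 ± 0.39, SE, edgeR adjusted p = 0.0208). Without pre-TRAP library 20 or 21 its edgeR adjusted p was 0.0582 or 0.0799. It was 0.119 in experiment 2 alone, 0.065 in het libraries alone and 0.123 in mut libraries alone. Glrb, the glycine receptor subunit that binds the scaffold gephyrin, was lower too, at 1.53 ± 0.372 CPM in TRAP and 2.90 ± 0.896 CPM in pre-TRAP (log2 -0.90 ± 0.16, SE, edgeR adjusted p = 1.78e-05). Of its partner alpha subunits only Glra2 could be tested, and it was not called (log2 0.92 ± 0.61, SE).

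**Figure D2:**
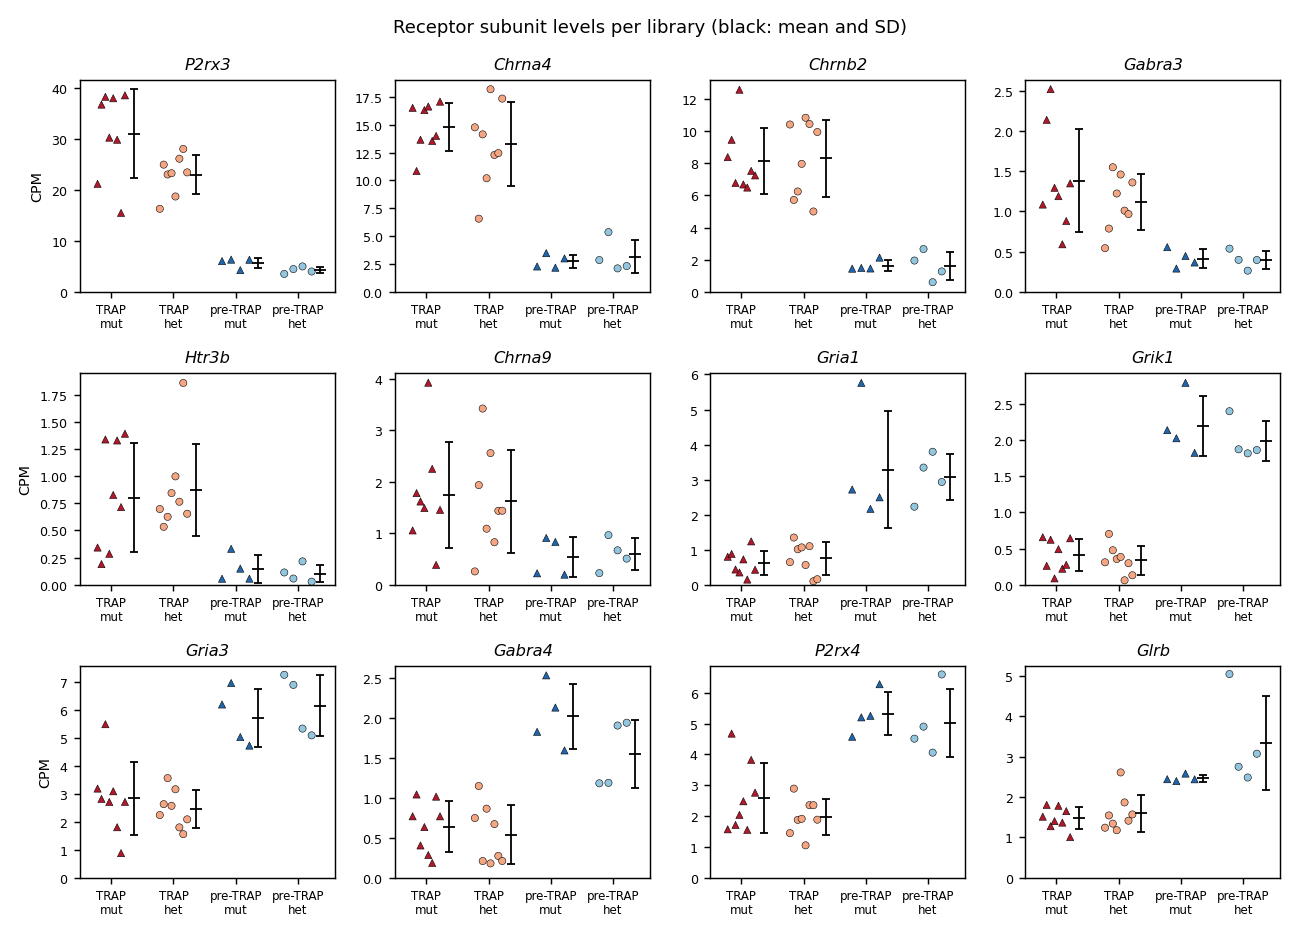
CPM of 12 receptor subunits in every library (y axes start at 0), for TRAP mut, TRAP het, pre-TRAP mut and pre-TRAP het from left to right, with the mean and SD of each group in black. P2rx3, Chrna4 and Chrnb2 have every TRAP library above every pre-TRAP library, Gria1, Grik1 and Gabra4 have every TRAP library below, and mut and het overlap for all 12 genes.

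The AMPA subunits divided as well. Gria1 (ENSMUSG00000020524) ran from 0.099 to 1.35 CPM, median 0.684 CPM, in TRAP and from 2.17 to 5.76 CPM, median 2.82 CPM, in pre-TRAP libraries. All TRAP values lay below all pre-TRAP values, and the log2 fold change was -2.31 ± 0.31 (SE, edgeR adjusted p = 4.41e-07), -1.45 in experiment 2 alone and -3.11 in experiment 1 alone. Gria3 was lower, at 2.65 ± 1.03 CPM in TRAP and 5.95 ± 1.01 CPM in pre-TRAP (log2 -1.18 ± 0.19, SE, edgeR adjusted p = 7.58e-06). Gria4, a subunit of fast AMPA receptors in the auditory pathway, was higher, at 4.05 ± 0.888 CPM in TRAP and 2.23 ± 0.799 CPM in pre-TRAP (log2 0.88 ± 0.17, SE, edgeR adjusted p = 8.3e-05). Gria2, whose edited form blocks calcium entry, averaged 0.989 ± 0.347 CPM in TRAP and 0.807 ± 0.157 CPM in pre-TRAP and was not called (log2 0.29 ± 0.20, SE). Among the kainate subunits the high-affinity ones were higher in TRAP. Grik4 averaged 2.76 ± 1.09 CPM in TRAP and 1.17 ± 0.527 CPM in pre-TRAP (log2 1.27 ± 0.23, SE, edgeR adjusted p = 2.82e-05). Grik5 averaged 5.42 ± 2.86 CPM in TRAP and 2.88 ± 1.77 CPM in pre-TRAP (log2 0.92 ± 0.25, SE, edgeR adjusted p = 0.00279). The Grik5 call was lost in experiment 1 alone (log2 0.77, edgeR adjusted p = 0.0586) and in het libraries alone (log2 0.68, edgeR adjusted p = 0.17). Of the low-affinity subunits Grik1 (ENSMUSG00000022935) was lower, with 0.0611 to 0.701 CPM, median 0.332 CPM, in TRAP and 1.81 to 2.79 CPM, median 1.95 CPM, in pre-TRAP. The ranges lay apart by more than 1 CPM, and its log2 fold change of -2.48 ± 0.27 was the most negative of all subunits (SE, edgeR adjusted p = 1.39e-08). Grik2 and Grik3 were not called. Of the delta receptors, Grid1 was not called (log2 -0.59 ± 0.29, SE).

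All 7 NMDA subunits were tested, and 2 were higher and 1 lower in TRAP, beside 27.9% and 31.2% of all genes. Grin3a (ENSMUSG00000039579), the GluN3A subunit of juvenile receptors with little calcium entry, ran from 3.20 to 11.3 CPM, median 8.05 CPM, in TRAP and from 1.69 to 5.27 CPM, median 2.72 CPM, in pre-TRAP libraries. The groups overlapped, and the log2 fold change was 1.31 ± 0.22 (SE, edgeR adjusted p = 1.22e-05). Grin2b, the GluN2 subunit that prevails in the embryonic brain, averaged 0.343 ± 0.181 CPM in TRAP and 0.814 ± 0.271 CPM in pre-TRAP (log2 -1.37 ± 0.29, SE, edgeR adjusted p = 0.000182), but in experiment 2 alone the log2 fold change was -0.57 (edgeR adjusted p = 0.215) against -2.12 in experiment 1 alone (edgeR adjusted p = 0.000332). Grin2a and Grin2d were not called, with log2 fold changes of 0.08 ± 0.17 and -0.03 ± 0.23 (SE). Grin1 was called higher at a log2 fold change of 0.77 ± 0.24 (SE, edgeR adjusted p = 0.00867), but it was 0.68 with an edgeR adjusted p of 0.591 without the experiment covariate, and 1.03 with an edgeR adjusted p of 0.2 in experiment 1 alone. Its levels in each experiment are given below.

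Auxiliary proteins of glutamate receptors, which traffic, gate or anchor them, formed a list of 31 genes, of which 28 were tested, 23 were higher and 4 lower in TRAP. The median log2 fold change over them was 1.01, beside -0.015 over all genes. The largest were C1ql3, a secreted synaptic organiser (2.80 ± 0.25, SE), Cacng2, the AMPA receptor partner stargazin (2.64 ± 0.21), and Cnih2, a cornichon that slows AMPA receptor closing (2.19 ± 0.37). The lower ones were C1ql1, Shisa9, Cbln2 and Dlg1. Of 11 scaffold and assembly factors of GABA-A and glycine receptors 6 were higher and none lower, among them Lhfpl4, which holds GABA-A receptors at synapses (2.16 ± 0.22), and Shisal1 (2.04 ± 0.19). Of 10 nicotinic assembly and clustering factors 9 were tested, with 6 higher, led by Ly6h (2.47 ± 0.23), and 2 lower, Lynx1 and Lrp4. Of 24 genes for synthesis, vesicle loading and uptake of the transmitters 19 were tested, with 9 higher and 7 lower. Those higher included Gad1, which makes GABA (2.40 ± 0.30), Slc17a6, a vesicular glutamate transporter of neurons (2.31 ± 0.12), Slc17a7 (2.11 ± 0.42) and Ache, which breaks down acetylcholine (2.10 ± 0.25). Those lower included Slc5a7, the choline transporter (-2.37 ± 0.24), and Slc17a9, which loads ATP into vesicles (-1.73 ± 0.48). Of 29 metabotropic receptors for the same transmitters 17 were tested, with 4 higher and 8 lower. Gabbr1 and Gabbr2, the pair that makes the GABA-B receptor, were both higher (1.47 ± 0.22 and 1.86 ± 0.25), and P2ry12, a microglial receptor, had the lowest value (-3.02 ± 0.56). Of 6 chloride transporters, which set whether GABA excites or inhibits, 5 were tested, with 1 higher and 2 lower, Slc12a2 (-0.40 ± 0.13) and Slc12a4 (-1.60 ± 0.21). Over all genes tested, 27.9% were higher and 31.2% lower, and no list was tested against these shares.

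Marker lists moved with the method across the same libraries, where 27.9% of all genes were higher and 31.2% lower in TRAP. All 14 neuron markers were higher in TRAP and their median was 2.63 on the log2 scale, and all 8 prosensory markers were higher with a median of 1.62. Isl1 is counted in both lists. All 8 periotic mesenchyme, 6 endothelial, 6 erythroid and 5 melanocyte markers were lower. Otic epithelium markers held called genes in both directions, and their sum was 217 to 351 CPM in TRAP and 327 to 802 CPM in pre-TRAP. Of the 8 Schwann cell and glia markers 3 were higher and 5 lower, and their sum was 139 to 226 CPM in TRAP and 266 to 360 CPM in pre-TRAP. The part of these cell types in the subunits' differences was not tested. Without TRAP libraries 3, 4, 5 and 6, an alternative chosen after seeing the data, 16 subunits were higher and 13 lower. The share over all genes was not computed for it. Several called subunits overlap another gene in the RefSeq annotation (Chrnb2 with Adar, Grik5 with Zfp574, Grin1 with Lrrc26, Grin3a with Ppp3r2, P2rx4 with Camkk2, P2rx3 with Prg3, Chrna3 with Chrna5, and Gabra4 with Gabrb1), and Gabra5 overlaps one as well. These overlaps are of whole gene spans, and exons were not compared. The sources do not give the strand setting of the counting, so whether reads of overlapping partners mix is not known.

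The experiments differed most in 2 subunits, Grin1 and Chrna7, in TRAP and in pre-TRAP RNA alike. Grin1 (ENSMUSG00000026959, chromosome 2) encodes GluN1, without which no NMDA receptor reaches the surface. In TRAP libraries it ran from 6.48 to 14.0 CPM, median 8.62 CPM, in experiment 2 and from 0.0248 to 0.439 CPM, median 0.216 CPM, in experiment 1. In pre-TRAP libraries it was 5.69, 5.99, 6.40 and 6.58 CPM in experiment 2 and 0.0297, 0.0826, 0.113 and 0.119 CPM in experiment 1. No library of experiment 2 came near the range of experiment 1, in either genotype. The counts summed to 2993 over 8 TRAP libraries of experiment 2 and 58 over 8 of experiment 1, a ratio of 49.1 after scaling (95% exact interval 37.8 to 64.8, covering counting error only). In pre-TRAP they summed to 880 over 4 libraries of experiment 2 and 14 over 4 of experiment 1, a ratio of 70.2 (41.6 to 129). The log2 fold change of experiment 2 over experiment 1 was 5.70 ± 0.33 in TRAP (SE, edgeR adjusted p = 2.7e-10) and 6.10 ± 0.31 in pre-TRAP (SE, edgeR adjusted p = 3.06e-07). The 250 bases before the Grin1 start, at chr2:25319188-25319437, minus strand (RefSeq, GRCm38.p6), are shown because no other subunit differed as much, and they hold neither the E-box CAGCTG nor the GC box GGGCGG on either strand.
Grin1: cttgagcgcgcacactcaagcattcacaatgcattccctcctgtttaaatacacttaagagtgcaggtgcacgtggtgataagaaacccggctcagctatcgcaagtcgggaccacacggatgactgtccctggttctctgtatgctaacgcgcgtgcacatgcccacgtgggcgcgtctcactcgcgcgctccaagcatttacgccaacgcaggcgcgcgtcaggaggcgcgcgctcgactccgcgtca

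Chrna7, the alpha7 subunit that forms nicotinic receptors alone, showed the same order. Its promoter window is printed above with the other nicotinic genes. In TRAP libraries it ran from 0.119 to 2.19 CPM, median 0.567 CPM, in experiment 2 and from 0 to 0.181 CPM, median 0.0149 CPM, in experiment 1, where 4 of 8 libraries were at 0. In pre-TRAP libraries it was 0.113, 0.196, 0.277 and 0.818 CPM in experiment 2 and 0, 0.0206, 0.0283 and 0.0297 CPM in experiment 1. The ranges overlapped slightly in TRAP and did not overlap in pre-TRAP. Counts summed to 238 in experiment 2 and 11 in experiment 1 over the TRAP libraries, a ratio of 20.6 (95% exact interval 11.3 to 41.8, covering counting error only). Over the pre-TRAP libraries they summed to 50 in experiment 2 and 3 in experiment 1, a ratio of 18.6 (6.01 to 93.3). The fitted log2 fold changes were 4.20 ± 0.80 in TRAP (SE, edgeR adjusted p = 0.000563) and 3.96 ± 0.84 in pre-TRAP (SE, edgeR adjusted p = 0.00672).

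Of 42 subunits tested in TRAP, 9 were higher and 2 lower in experiment 2, against 14.1% and 8.81% of the 21577 genes tested (23% in either direction). At an unadjusted p under 0.05 there were 14, beside 34.5% of genes. Their median log2 fold change was 0.206, and that of all genes 0.017. In pre-TRAP, 4 of 40 were higher and 1 lower, against 9.74% and 4.97% of 21954 genes (14.7% in either direction; 9 subunits and 28.8% of genes at an unadjusted p under 0.05), with a median of 0.106 beside -0.003 for all genes. The NMDA family held 4 of the 9 subunits higher in TRAP and 2 of the 4 higher in pre-TRAP, from 5 tested in each. The direction of the family was not tested. Grin2a (ENSMUSG00000059003), the GluN2 subunit that prevails in mature synapses, ran from 3.46 to 5.85 CPM in experiment 2 and from 1.11 to 2.76 CPM in experiment 1 in TRAP. In pre-TRAP it was 3.42, 3.69, 4.10 and 4.93 CPM in experiment 2 and 1.45, 1.89, 1.93 and 2.02 CPM in experiment 1. The experiments did not overlap in either method, and the log2 fold changes were 1.26 ± 0.22 in TRAP (SE, edgeR adjusted p = 0.000258) and 1.15 ± 0.21 in pre-TRAP (SE, edgeR adjusted p = 0.00255). Grin2d, known from interneurons and the embryonic brain, averaged 1.77 ± 0.512 CPM in experiment 2 and 0.742 ± 0.270 CPM in experiment 1 in TRAP (SD, n = 8 each; log2 1.29 ± 0.26, SE, edgeR adjusted p = 0.000894). Grin2b averaged 0.468 ± 0.145 CPM in experiment 2 and 0.218 ± 0.115 CPM in experiment 1 in TRAP (log2 1.18 ± 0.34, SE, edgeR adjusted p = 0.0164). Neither was called in pre-TRAP, where the log2 fold changes were 0.05 ± 0.27 for Grin2d and -0.33 ± 0.34 for Grin2b (SE). The TRAP call of Grin2d was lost in het libraries alone (log2 1.07, edgeR adjusted p = 0.176). That of Grin2b was lost in mut libraries alone (log2 0.91, edgeR adjusted p = 0.204). The pre-TRAP call of Grin2a was lost in het libraries alone (log2 1.19, edgeR adjusted p = 0.24). Grin2c, singled out after its values were seen and never above 0.11 CPM in the mean of a group, had 56 counts in experiment 2 and 7 in experiment 1 over the TRAP libraries, a ratio of 7.61 (95% exact interval 3.46 to 19.8, covering counting error only). Single libraries of experiment 2 held 1, 1, 1, 4, 4, 10, 17 and 18 of these counts. Grin2c did not pass the filter in TRAP, so edgeR did not test it there.

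**Figure D3:**
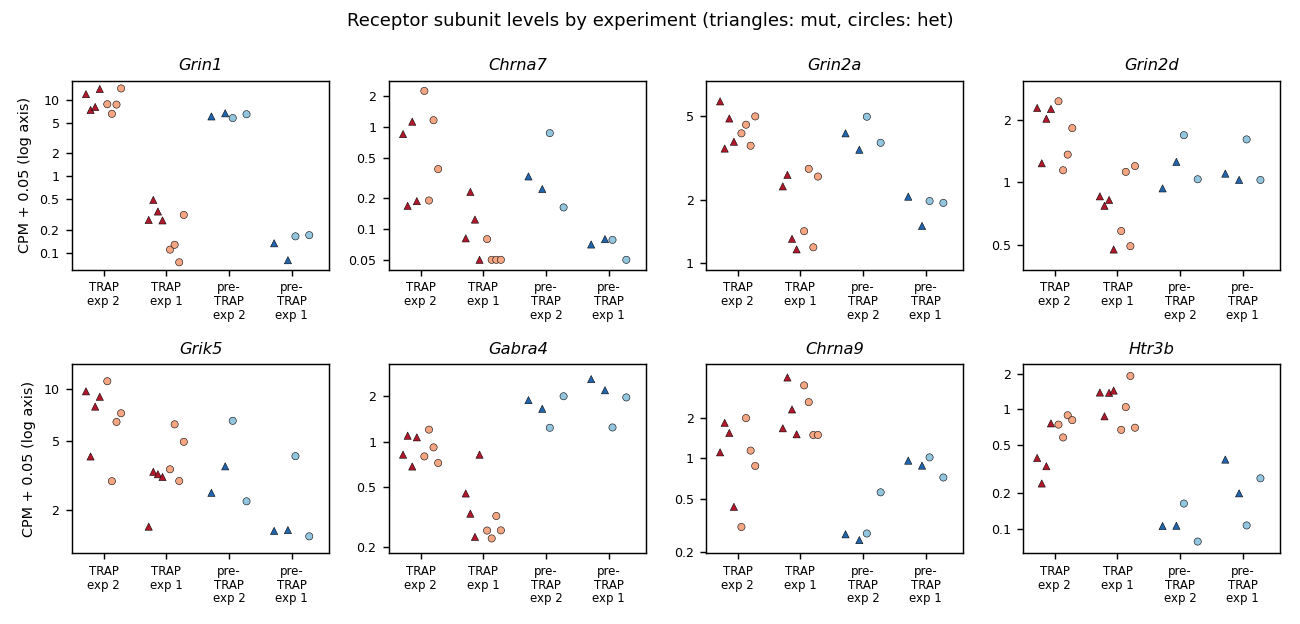
CPM plus 0.05 on a log axis for 8 receptor subunits in every library, with TRAP experiment 2, TRAP experiment 1, pre-TRAP experiment 2 and pre-TRAP experiment 1 from left to right, triangles for mut and circles for het. Grin1 is separated between the experiments in TRAP and in pre-TRAP with both genotypes on each side, Grin2a is separated by a smaller step, and Chrna9 and Htr3b lie lower in experiment 2.

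Gabra4 averaged 0.863 ± 0.189 CPM in experiment 2 and 0.314 ± 0.199 CPM in experiment 1 in TRAP (SD, n = 8 each; log2 1.52 ± 0.30, SE, edgeR adjusted p = 0.000735), and 1.64 ± 0.336 CPM in experiment 2 and 1.94 ± 0.566 CPM in experiment 1 in pre-TRAP (SD, n = 4 each; log2 -0.22 ± 0.26, SE, not called). Grik5 averaged 7.27 ± 2.77 CPM in experiment 2 and 3.56 ± 1.41 CPM in experiment 1 in TRAP (log2 1.10 ± 0.27, SE, edgeR adjusted p = 0.00479). Grik4 (log2 0.71 ± 0.25, SE, edgeR adjusted p = 0.0411) and Gabrb1 (log2 1.15 ± 0.39, SE, edgeR adjusted p = 0.039) were also called higher in TRAP. Chrna9 was lower in experiment 2 in both methods. It averaged 1.10 ± 0.611 CPM in experiment 2 and 2.26 ± 0.973 CPM in experiment 1 in TRAP (log2 -0.98 ± 0.35, SE, edgeR adjusted p = 0.047). In pre-TRAP it was 0.196, 0.222, 0.226 and 0.507 CPM in experiment 2 and 0.668, 0.831, 0.908 and 0.963 CPM in experiment 1, without overlap (log2 -1.56 ± 0.36, SE, edgeR adjusted p = 0.0117). Htr3b averaged 0.546 ± 0.246 CPM in experiment 2 and 1.13 ± 0.426 CPM in experiment 1 in TRAP (log2 -1.05 ± 0.31, SE, edgeR adjusted p = 0.0193), with an edgeR adjusted p of 0.0605 without library 12. Chrna3 was called higher in pre-TRAP, at 0.997 ± 0.490 CPM in experiment 2 and 0.299 ± 0.131 CPM in experiment 1 (log2 1.66 ± 0.42, SE, edgeR adjusted p = 0.0184), with an edgeR adjusted p of 0.0521 without library 22. Leaving out any of 9 TRAP libraries for Chrna9 or Gabrb1, or any of 10 for Grik4, ended their TRAP calls, with edgeR adjusted p from 0.051 to 0.117. These 3 TRAP calls were also lost in each genotype alone. In het libraries alone the edgeR adjusted p was 0.377 for Grik5 and 0.649 for Htr3b in TRAP. It was 0.0905 for Chrna3 and 0.555 for Chrna9 in pre-TRAP. In mut libraries alone it was 0.111 for Gabra4 in TRAP and 0.18 for Chrna3 in pre-TRAP.

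Genes other than subunits differed between the experiments too. Dct, a melanocyte enzyme, averaged 47.5 ± 14.1 CPM in experiment 2 and 1.54 ± 0.976 CPM in experiment 1 in TRAP (SD, n = 8 each), and 368 ± 74.2 CPM in experiment 2 and 10.9 ± 1.45 CPM in experiment 1 in pre-TRAP (SD, n = 4 each). The other melanocyte markers did not follow it: Dct alone was called of 4 tested in TRAP, and of 5 tested in pre-TRAP only Pmel was called besides, lower in experiment 2 (log2 -0.76 ± 0.24, SE, edgeR adjusted p = 0.0475). The serotonin receptor gene Htr2a had log2 fold changes of 3.86 ± 0.51 in TRAP and 2.66 ± 0.44 in pre-TRAP (SE). Summed neuron markers ran from 3560 to 5600 CPM in experiment 2 and from 5280 to 6620 CPM in experiment 1 in TRAP, and 4 of 14 were lower and none higher in experiment 2. Hair cell markers summed to 52.6 to 74.5 CPM in experiment 2 and 52.0 to 71.2 CPM in experiment 1 in TRAP, and none was called. The part of neurons, hair cells and melanocytes in the differences between experiments was not tested, and the sources do not say how the experiments differed.

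The genotype comparison asked whether loss of the remaining Fgf20 allele changed the subunits. None of 42 subunits tested in TRAP and none of 40 tested in pre-TRAP passed in edgeR. Over all genes tested, 0.0742% were called in TRAP (0.0185% higher and 0.0556% lower) and 0.00455% in pre-TRAP. At an unadjusted p under 0.05 there were 3 in TRAP and 1 in pre-TRAP, beside 3.77% and 4.77% of all genes. DESeq2 and limma voom also called 0 in either. Median log2 fold changes of mut over het were 0.05 over the subunits and -0.015 over all genes in TRAP, and -0.168 and -0.026 in pre-TRAP. In TRAP every subunit tested overlapped between the genotypes.

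The subunits with the lowest p in TRAP were P2rx3, Chrng and P2rx2. P2rx3 ran from 15.4 to 38.5 CPM, median 33.4 CPM, in TRAP mut and from 16.2 to 28 CPM, median 23.3 CPM, in TRAP het. The median was higher in mut while the lowest library was also a mut one, and the log2 fold change was 0.40 ± 0.16 (SE, edgeR adjusted p = 1.0), 0.19 in experiment 2 alone and 0.64 in experiment 1 alone. In pre-TRAP it was 4.24, 6.02, 6.28 and 6.30 CPM in mut and 3.50, 3.97, 4.45 and 4.96 CPM in het (log2 0.44 ± 0.20, SE, edgeR adjusted p = 0.837). Chrng averaged 2.07 ± 0.688 CPM in TRAP mut and 1.31 ± 0.624 CPM in TRAP het (SD, n = 8 each; log2 0.70 ± 0.29, SE, edgeR adjusted p = 1.0). P2rx2 averaged 0.634 ± 0.404 CPM in TRAP mut and 1.07 ± 0.418 CPM in TRAP het (log2 -0.77 ± 0.36, SE, edgeR adjusted p = 1.0). In pre-TRAP the lowest p belonged to Grik3, a kainate subunit, at 0.0841, 0.194, 0.206 and 0.237 CPM in mut and 0.254, 0.479, 0.549 and 0.652 CPM in het. All mut values lay below all het values, on 3 to 10 counts per mut library and 9 to 23 per het library, and the log2 fold change was -1.41 ± 0.40 (SE, edgeR adjusted p = 0.837). In TRAP Grik3 averaged 0.361 ± 0.248 CPM in mut and 0.277 ± 0.166 CPM in het. Gabra2 in pre-TRAP averaged 0.896 ± 0.185 CPM in mut and 1.53 ± 0.738 CPM in het (SD, n = 4 each; log2 -0.68 ± 0.32, SE, edgeR adjusted p = 0.837).

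**Figure D4:**
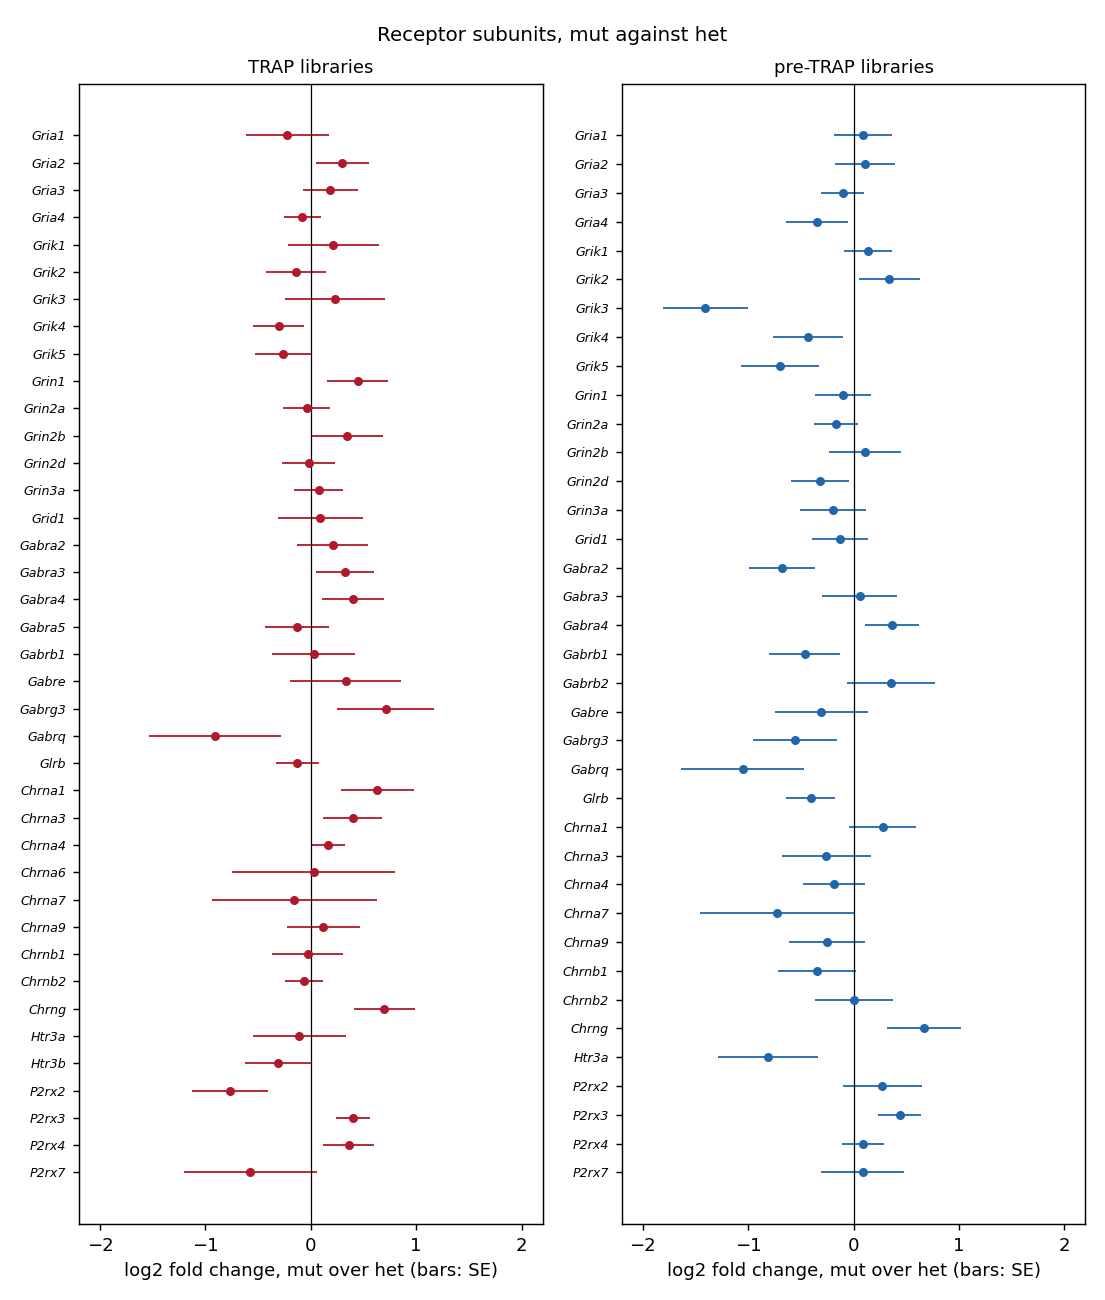
Log2 fold change of mut over het (x axis) for 39 receptor subunits tested in TRAP libraries on the left and 37 tested in pre-TRAP libraries on the right, in family order down the page. Points are edgeR estimates and bars their SE. No subunit passed an adjusted p of 0.05 in either.

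Several other subunits that were higher in TRAP than in pre-TRAP had mut and het means closer than their SDs. Gria4 averaged 3.96 ± 0.752 CPM in TRAP mut and 4.15 ± 1.05 CPM in TRAP het, Chrna4 14.8 ± 2.17 CPM in TRAP mut and 13.2 ± 3.77 CPM in TRAP het, and Chrnb2 8.15 ± 2.05 CPM in TRAP mut and 8.32 ± 2.40 CPM in TRAP het (SD, n = 8 each). Chrna9 averaged 1.74 ± 1.03 CPM in TRAP mut and 1.62 ± 1.00 CPM in TRAP het, a log2 fold change of 0.12 ± 0.35 (SE). Grin3a averaged 7.80 ± 1.82 CPM in TRAP mut and 7.26 ± 3.04 CPM in TRAP het. Grin1 was spread by experiment within each genotype. In experiment 2 it was 7.29 to 13.7 CPM in TRAP mut and 6.48 to 14.0 CPM in TRAP het, and in experiment 1 it was 0.214 to 0.439 CPM in TRAP mut and 0.0248 to 0.261 CPM in TRAP het. Of the lists beside the subunits, none of the auxiliary, scaffold, assembly, transmitter, metabotropic or chloride transporter genes was called in edgeR in TRAP or in pre-TRAP.

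Differences between contrasts were tested as interactions. For genotype by method, none of 52 subunits passed in edgeR, where 0% of 24242 genes did, with 2 subunits and 1.25% of genes at an unadjusted p under 0.05, and 0 by DESeq2 or limma voom. The lowest p belonged to Grik3 (log2 1.75 ± 0.77, SE, edgeR adjusted p = 1.0), Chrnb3 (-2.89 ± 1.30) and Gabrg3 (1.31 ± 0.71). For experiment by method, none of 52 passed in edgeR, beside 0.0371% of genes (0.0289% higher and 0.00825% lower), with 6 subunits and 4.57% of genes at an unadjusted p under 0.05. Gabra4 came nearest, with an interaction of 1.69 ± 0.43 on the log2 scale (SE, edgeR adjusted p = 0.274), and DESeq2 and limma voom called it (adjusted p = 0.0275 and 0.0298). Without TRAP library 16 its edgeR adjusted p was 0.0318. Within the TRAP against pre-TRAP contrast, Gabra4 had a log2 fold change of -0.87 in experiment 2 alone and -2.67 in experiment 1 alone. Grin2d (1.21 ± 0.41) and Grin2b (1.46 ± 0.52) followed and were not called (SE, edgeR adjusted p = 0.766 and 0.821).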

How the data were processed

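Members and lists were chosen with earlier results of these data known. Libraries were made with a Picopure RNA kit and a Clontech SMARTer kit, per the labels' protocols. The deposited values were raw counts per Ensembl gene, whole numbers not normalized by the authors. STAR, DESeq2 and the build GRCm38.p5 are named by the submitters' processing notes, with no version or role, and the sources used here do not give the counting tool, annotation or strand. Symbols were matched for 53274 of 53946 identifiers. All 24 columns were assigned by sample number. Total counts per library, 30745166 to 53374796, set the counting precision, and 19 subunits had under 100 counts over all libraries.

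edgeR 4.0.16 in R 4.3.3 tested every comparison, using TMM scaling, filterByExpr (minimum count 10 on group-by-experiment cells), quasi-likelihood F tests and experiment as a covariate, adjusted over all genes tested and called at 0.05. SE is the absolute log2 fold change over the root of F. CPM used TMM factors over 24 libraries. Alternatives were other scaling, no filter, DESeq2 1.42.0, limma 3.58.1 voom with quality weights, no experiment covariate, subsets and leaving out each library. The fits were tested on simulated counts. Subunits were described in full if they averaged at least 1 CPM in a group or were called, with full statistics for up to 10 called each way per comparison, or for the 3 lowest p where none was called. Up to 4 genes per list and direction could be named. Promoters and overlaps came from RefSeq on GRCm38.p6, used for names, neighbours and sequence, since the counts' build was GRCm38.p5. The values of some subunits and list genes are not reported here, although counts over all subunits and lists include them.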

Additional observations from a re-analysis of the deposited data

Results flagged for a closer look

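Within the 4 groups, 136 sets of values from 34 subunits were examined for a library far from the rest, by the gap of the highest or lowest library to its nearest neighbour over the range of the group (Dixon's criterion). 11 values stood apart. The criterion was applied to log2 of CPM plus 0.5, and the values given are CPM. By chance it sets apart about 1 in 20 independent groups of like values. These groups mix 2 experiments and share libraries, so that rate need not hold. Whether 11 is more than chance gives was not tested. In TRAP mut, Chrnb1 was 0.137 CPM in library 14 against 0.679 to 1.42 CPM in the others, Grid1 0.184 CPM in library 13 against 0.55 to 0.855 CPM, and P2rx7 0.568 CPM in library 10 against 0.114 to 0.249 CPM. In TRAP het, Htr3b was 1.86 CPM in library 12 against 0.533 to 0.997 CPM. In pre-TRAP mut, Chrnb2 was 2.13 CPM in library 24 against 1.44 to 1.49 CPM, Gabrb1 0.499 CPM in library 18 against 0.33 to 0.356 CPM, Gria4 1.36 CPM in library 22 against 2.08 to 2.21 CPM, P2rx3 4.24 CPM in library 22 against 6.02 to 6.30 CPM, and P2rx7 0.252 CPM in library 24 against 0.97 to 1.05 CPM. In pre-TRAP het, Grik1 was 2.40 CPM in library 17 against 1.81 to 1.87 CPM, and Gria2 was 0.992 CPM in library 19 against 0.692 to 0.705 CPM.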

How the results depend on the processing

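Of 1577 values of single subunits recomputed under the alternatives, 1496 kept their direction and their side of the threshold, 78 kept the direction and lost the call, 3 gained a call, all for Gabra4 in the experiment by method test, and 0 reversed. For experiment 2 against 1 in TRAP, 9 subunits were higher and 2 lower, against 3 and 0 in het libraries alone and 5 and 1 in mut libraries alone. In pre-TRAP it was 4 higher and 1 lower, against 1 and 0 in het libraries alone, and 2 lower by limma voom. Experiment by method called 0 in edgeR and 1 higher by DESeq2 and by limma voom. Leaving out each library in turn gave 7 to 11 higher and 1 to 2 lower for experiment in TRAP, 3 to 7 higher and 1 lower in pre-TRAP (7 without library 19), 0 to 1 higher for experiment by method (1 without library 16), and 15 to 16 higher and 10 to 13 lower for TRAP against pre-TRAP. TRAP against pre-TRAP had 14 higher and 17 lower by limma voom, and 15 higher and 8 lower in experiment 2 alone. The cause of these moves was not tested, and the subsets hold fewer samples. Shares over all genes were not computed for any alternative, so these counts cannot be set against calls at large. Without TRAP libraries 3, 4, 5 and 6, experiment 2 against 1 in TRAP had 10 higher and 2 lower. No paired analysis was possible because the library numbers run from 1 to 24 and no groups share one, and no label ties a TRAP to a pre-TRAP library. Subunits under about 1 CPM rest on few counts, which limits what could be detected.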
